A study of Mus musculus with 48 samples.

Results

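Mitochondrial chaperones and proteases keep the proteins of the organelle folded and remove those that are damaged or unassembled. The 10 genes described here are the chaperone genes Hspa9, Hspd1, Hspe1, Trap1 and Dnaja3 and the protease genes Lonp1, Clpp, Yme1l1, Afg3l2 and Spg7. The rule picks them by symbol and uses no measured value, and they are 10 of the 34183 genes in each of the 2 deposited tables. All 10 were present in both tables and passed the filter on low counts in every fit.

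All 48 libraries were made from wildtype adult mouse dorsal root ganglia (DRG), which house the somata of sensory neurons, dissociated into cultures enriched for neurons. Cells were transfected at once after isolation and RNA was taken 42 h later, with 4 libraries in each of 12 groups. In 1 table, pools of siRNA (short RNAs that lower the target mRNA) were aimed at Atf4, Atf3, Jun, Stat3, Klf6, Rest or Alyref, described by the submitters as injury-responsive factors, beside a control pool (siCONTROL) and untransfected cells taken at time 0. In the other table, cells received Atf4 and Cebpg mRNA together, Atf4 mRNA alone or GFP mRNA, which encodes a fluorescent protein that the cells lack. All groups share the wild-type background, the dissociation that cuts the axons and, except time 0, a transfection. Whether replicates were separate animals or cultures is not in the labels, and p-values therefore reflect only the spread among these libraries, which may be technical. The siCONTROL and time 0 groups differ in both time and transfection, and these cannot be told apart.

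Proteins made in the cytosol enter the mitochondrion unfolded. Hspa9 (mortalin) pulls them into the matrix, the inner compartment, and folds them with the help of J-domain partners such as Dnaja3, while Hspd1 forms a barrel-shaped folding chamber that Hspe1 closes as a lid. Trap1 is the mitochondrial member of the HSP90 family. Lonp1 and Clpp are proteases of the matrix, Clpp working with the unfoldase Clpx, and the inner membrane carries Yme1l1, which faces the space between the membranes, and the complex of Afg3l2 and Spg7, which faces the matrix. Mutations in the human AFG3L2 and SPG7 genes cause disease of neurons with long axons or of the cerebellum. ATF4 is the main transcription factor of the integrated stress response, a programme of amino acid synthesis and stress genes, and works as a dimer with partners such as the product of Cebpg.

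Each promoter was taken as 250 bases before to 50 bases after the start of the gene, from RefSeq on build GRCm38.p6. The table held 9 such windows for 8 of the 10 genes, and Hspa9 and Afg3l2 are named only. Of 4 motifs searched on both strands, the core of the combined C/EBP and ATF element that ATF4 dimers bind (TGATGNAA) was in 0 of the 9 windows, against 3.97% of 32851 windows of the same length. The AP-1 motif TGANTCA was in 0 of the 9 and in 7.81% of all windows. The CRE motif TGACGTCA was in the Trap1 window alone among them and in 1.79% of all. The core of the heat shock element, GAANNTTC, was in 1 Hspd1 window and in the Hspe1 window and in 7.86% of all. The motifs do not overlap each other in these windows, and no match means only that those letters are not in the window.

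Hspd1 and Hspe1 lie head to head on chromosome 1 and are read in opposite directions. The Hspe1 window (chr1:55087898-55088197, plus strand) shares 285 bases with 1 of the Hspd1 windows (chr1:55087883-55088182, minus strand), so the heat shock core counted for both genes is the same one. The Hspe1 window is shown because it holds this shared stretch, the Lonp1 window (chr17:56626854-56627153, minus strand) because Lonp1 was among the genes that moved most, and the Trap1 window (chr16:4077761-4078060, minus strand) because it holds the only CRE. Each is written 5′ to 3′, with a motif that was searched in capitals.
Hspe1: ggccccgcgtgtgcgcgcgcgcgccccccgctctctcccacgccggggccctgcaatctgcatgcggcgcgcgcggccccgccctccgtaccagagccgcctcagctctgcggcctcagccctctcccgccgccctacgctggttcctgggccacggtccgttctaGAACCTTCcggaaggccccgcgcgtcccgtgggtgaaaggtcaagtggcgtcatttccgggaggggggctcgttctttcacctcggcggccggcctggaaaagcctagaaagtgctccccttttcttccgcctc
Lonp1: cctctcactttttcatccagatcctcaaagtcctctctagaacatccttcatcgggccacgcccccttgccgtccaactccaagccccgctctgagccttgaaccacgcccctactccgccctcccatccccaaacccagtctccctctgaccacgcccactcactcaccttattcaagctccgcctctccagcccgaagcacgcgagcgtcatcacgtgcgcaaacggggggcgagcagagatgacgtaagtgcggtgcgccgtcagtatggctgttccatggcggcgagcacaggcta
Trap1: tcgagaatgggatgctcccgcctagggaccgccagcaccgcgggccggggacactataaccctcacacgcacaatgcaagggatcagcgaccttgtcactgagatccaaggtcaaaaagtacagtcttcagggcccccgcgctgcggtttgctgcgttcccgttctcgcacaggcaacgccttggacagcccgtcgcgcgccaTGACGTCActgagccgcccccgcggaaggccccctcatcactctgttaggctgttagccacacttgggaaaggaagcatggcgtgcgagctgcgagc

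Levels are given as CPM, the deposited value scaled to a common library total. The deposited values behave as counts already divided by transcript length, so CPM can be set side by side between genes. Processed pseudogenes of Hspa9, Hspd1 and Hspe1 lie elsewhere in the genome, and how shared reads were assigned is not given in the sources used here, so the levels of these 3 genes are uncertain to that extent. Column totals ranged from 1539198 to 6621566, and the lowest deposited value of any of the 10 genes in a library was 53.5, for Spg7. Differences are log2 fold changes with their standard error (SE) from edgeR's quasi-likelihood test, and a gene was called when its p, adjusted by Benjamini-Hochberg over all genes tested, was below 0.05. The knockdown fit tested 14876 genes in 32 libraries, the mRNA fit 13857 genes in 12 libraries and the fit of siCONTROL against time 0 13448 genes in 8 libraries. Each siRNA lowered its target, by 1.46 on the log2 scale for Rest to 2.58 for Atf4. The libraries expressed the neuron markers fixed for the check, with a summed level of 7942 to 14709 CPM over 9 genes, and the satellite glia markers at 365 to 5539 CPM over 5 genes.

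**Figure D1:**
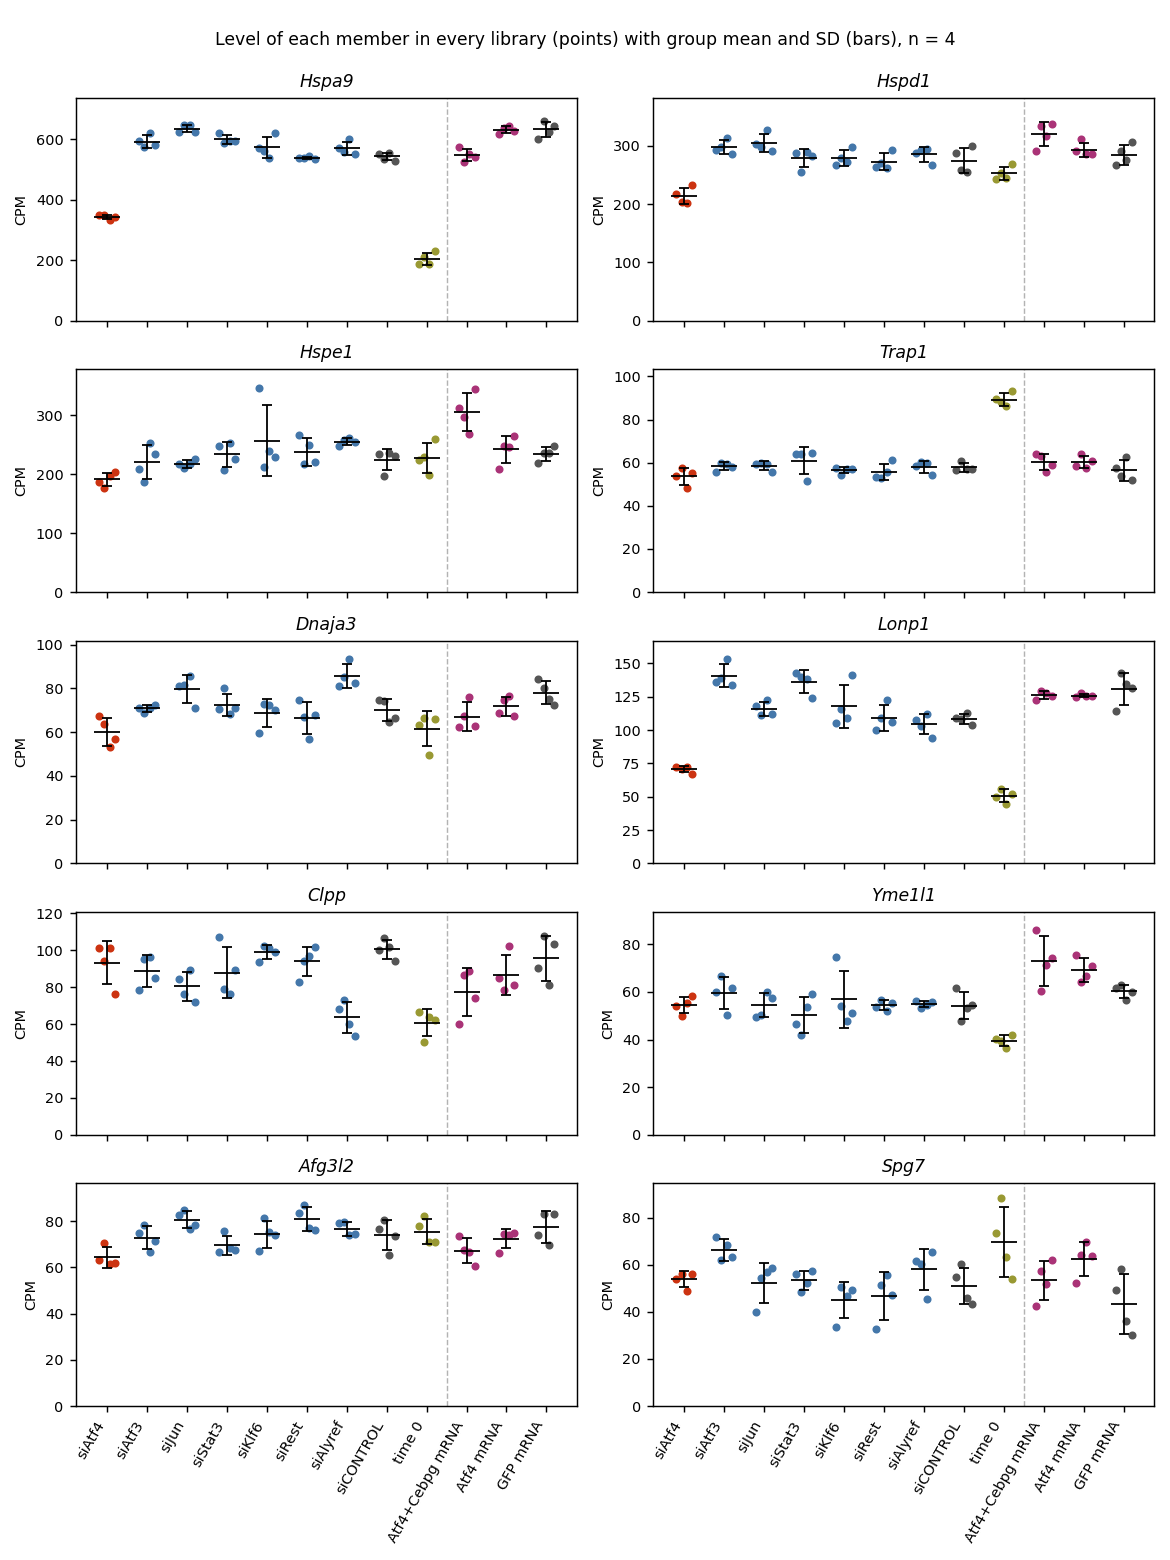
Level of each of the 10 genes in CPM (vertical axes, from 0) in every library, as points, with the mean and SD of each group of 4 as bars. Groups run along the horizontal axis and the dashed line separates the 2 tables. Hspa9 and Lonp1 are low in siAtf4 and time 0 libraries, and Trap1 is high at time 0 alone.

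Hspa9 was the most abundant of the 10 transcripts in cells at 42 h, and its level varied most between groups. In the siRNA table it averaged 635 ± 12.2 CPM in siJun, 599 ± 14.9 CPM in siStat3, 592 ± 20.3 CPM in siAtf3, 573 ± 34.4 CPM in siKlf6, 569.5 ± 21.6 CPM in siAlyref, 538 ± 4.38 CPM in siRest, 343 ± 7.21 CPM in siAtf4, 542 ± 12.2 CPM in siCONTROL and 204 ± 20.6 CPM in time 0 libraries (SD, n = 4 each). In the mRNA table it averaged 547 ± 21.1 CPM with Atf4 and Cebpg mRNA, 631 ± 11.6 CPM with Atf4 mRNA and 632 ± 25.01 CPM with GFP mRNA. In the order of these means each group from siStat3 down through siAtf3, siKlf6, siAlyref, siCONTROL and siRest overlapped the next. The siJun libraries lay just above siStat3 (lowest 623 CPM, against a highest of 621 CPM), and siAtf4 and time 0 each stood apart below. The highest group mean was 3.11 times the lowest for Hspa9 and 2.77 times for Lonp1, against 1.26 times for Afg3l2, the least variable. The median over groups of the coefficient of variation between replicates was 2.96% for Hspa9 and 15.4% for Spg7, so a small difference is easier to see in Hspa9 than in Spg7.

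Lonp1 averaged 141 ± 8.59 CPM in siAtf3, 136 ± 8.44 CPM in siStat3, 118 ± 16.1 CPM in siKlf6, 116 ± 5.36 CPM in siJun, 109 ± 9.68 CPM in siRest, 104 ± 7.61 CPM in siAlyref, 70.6 ± 2.43 CPM in siAtf4, 108 ± 3.56 CPM in siCONTROL and 50.8 ± 4.79 CPM in time 0 libraries (SD, n = 4 each). Each group from siAtf3 down to siAlyref overlapped the next, and siAtf4 and time 0 each stood apart below. Lonp1 averaged 126 ± 2.86 CPM with Atf4 and Cebpg mRNA, 126 ± 1.29 CPM with Atf4 mRNA and 131 ± 12.1 CPM with GFP mRNA. Hspd1 varied less, with 305 ± 15.4 CPM in siJun, 297 ± 11.8 CPM in siAtf3, 285 ± 12.5 CPM in siAlyref, 279 ± 13.1 CPM in siKlf6, 278 ± 15.8 CPM in siStat3, 272 ± 14.5 CPM in siRest, 214 ± 14.1 CPM in siAtf4, 275 ± 21.6 CPM in siCONTROL and 253 ± 11.5 CPM in time 0 libraries. Its lowest group was siAtf4, which stood apart from time 0, while the other groups overlapped their neighbours.

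The remaining genes differed in which group was extreme. In the siRNA table Trap1 averaged 53.7 to 61.0 CPM over the 8 groups taken at 42 h, against 89.3 ± 2.99 CPM at time 0 (SD, n = 4). In the same table Dnaja3 was lowest in siAtf4 (60.2 ± 6.43 CPM) and highest in siAlyref libraries (85.5 ± 5.46 CPM), and Afg3l2 was lowest in siAtf4 (64.2 ± 4.38 CPM) and highest in siRest libraries (80.8 ± 5.20 CPM). Yme1l1 was highest in siAtf3 (59.7 ± 6.81 CPM) and lowest in time 0 libraries (39.5 ± 2.34 CPM), Spg7 was lowest in siKlf6 and highest in time 0 libraries (69.6 ± 14.8 CPM), and Clpp was highest in siCONTROL and lowest in time 0 libraries. In the mRNA table Yme1l1 averaged 73.0 ± 10.6 CPM with both mRNAs, 69.3 ± 4.95 CPM with Atf4 mRNA and 60.2 ± 2.68 CPM with GFP mRNA. Hspe1 had 346, 212, 240.1 and 229.8 CPM in siKlf6 libraries, where 1 library, the one with the lowest total of all 48, lay far above the others.

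Knockdown of Atf4 lowered 3 of the 10 genes: the chaperone genes Hspa9 and Hspd1 and the protease gene Lonp1. None of the 10 rose. Among all genes 4.17% were called lower and 2.74% higher in siAtf4 than in siCONTROL libraries. The median log2 fold change over the 10 genes was -0.21, against -0.00 over all genes tested. Atf4 itself fell to 123, 102, 90.7 and 66.3 CPM in siAtf4 libraries, against 583, 574, 601.5 and 517 CPM in siCONTROL libraries.

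Hspa9 had 348, 348, 333 and 344 CPM in siAtf4 libraries, against 549.7, 536, 555 and 529 CPM in siCONTROL libraries. Every siAtf4 library was below every siCONTROL library. The log2 fold change was -0.67 ± 0.04 (SE, adjusted p = 2.08e-12), which is 1.59-fold lower in siAtf4, and it ranked 8 by p among all genes tested. Lonp1, which degrades oxidised and misfolded matrix proteins, had 72.2, 70.9, 72.3 and 67.1 CPM in siAtf4 libraries, against 109, 108, 113 and 104 CPM in siCONTROL libraries. These groups did not overlap either, and the log2 fold change was -0.62 ± 0.08 (SE, adjusted p = 1.89e-06), 1.54-fold lower in siAtf4.

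Hspd1 changed less, with 217, 204, 203 and 233 CPM in siAtf4 libraries, against 287, 259, 254 and 299 CPM in siCONTROL libraries. The groups stood apart by a gap between 233 and 254 CPM, and the log2 fold change was -0.36 ± 0.06 (SE, adjusted p = 0.000141). Its partner Hspe1 had 187, 177, 197 and 204 CPM in siAtf4 libraries, against 234, 198, 236 and 230.3 CPM in siCONTROL libraries. The siAtf4 libraries overlapped 1 siCONTROL library, replicate 2, and the difference of -0.23 ± 0.11 did not pass (adjusted p = 0.215). The log2 ratio of Hspe1 to Hspd1 averaged -0.16 ± 0.08 in siAtf4 and -0.29 ± 0.13 in siCONTROL libraries (SD, n = 4 each). That difference of 0.13 did not pass a two-sided exact permutation test (p = 0.171, adjusted p = 0.367 over 11 comparisons), in which the smallest p that can be reached is 0.0286. A comparison alone at that p would not pass after adjustment, so the adjusted p does not show that the ratio was unchanged.

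The 6 other genes did not pass in this comparison. Dnaja3, the J-domain partner of Hspa9, had a log2 fold change of -0.22 ± 0.09 (adjusted p = 0.131) and Afg3l2 one of -0.21 ± 0.07 (adjusted p = 0.0957). Afg3l2 passed in 3 of 13 alternatives: without siAtf4 replicate 2, without siCONTROL replicate 3 and with the replicate number as a block. Trap1 (-0.12), Clpp (-0.11), Yme1l1 (0.01) and Spg7 (0.07) had smaller differences, with adjusted p between 0.407 and 0.986.

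Because siCONTROL libraries enter each knockdown comparison, siAtf4 was also set against the mean of the 6 other knockdowns. The siCONTROL libraries have no weight in this mean but are part of the same fit. Here 6 of the 10 genes were lower in siAtf4 and none was higher, where 9.28% of all genes were called lower and 10.5% higher. The median over the 10 genes was -0.27, against 0.01 over all genes. Hspa9 (-0.77 ± 0.03, adjusted p = 8.15e-16) had the smallest p of all 14876 genes, and Lonp1 differed by -0.77 ± 0.06 (adjusted p = 1.12e-10). Hspd1 differed by -0.42 ± 0.05 (adjusted p = 7.70e-08), Hspe1 by -0.31 ± 0.08 (adjusted p = 0.00675), Dnaja3 by -0.30 ± 0.07 (adjusted p = 0.00148) and Afg3l2 by -0.24 ± 0.06 (adjusted p = 0.00250). Trap1, Clpp, Yme1l1 and Spg7 did not pass. Some of these 6 knockdowns were themselves called higher than siCONTROL for Lonp1 or Hspa9, and siAlyref was lower for Clpp. They also hold more libraries than siCONTROL. The part of either in the larger differences and added calls was not tested. All 28 other libraries taken at 42 h in the siRNA table lay above all 4 siAtf4 libraries for Hspa9, Lonp1 and Hspd1. For Hspe1 this held for 26 of the 28, for Dnaja3 for 23 and for Afg3l2 for 22. For Trap1 it held for 15, for Spg7 for 11, for Yme1l1 for 7 and for Clpp for 5. How many of all genes stand apart in this way was not counted.

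**Figure D2:**
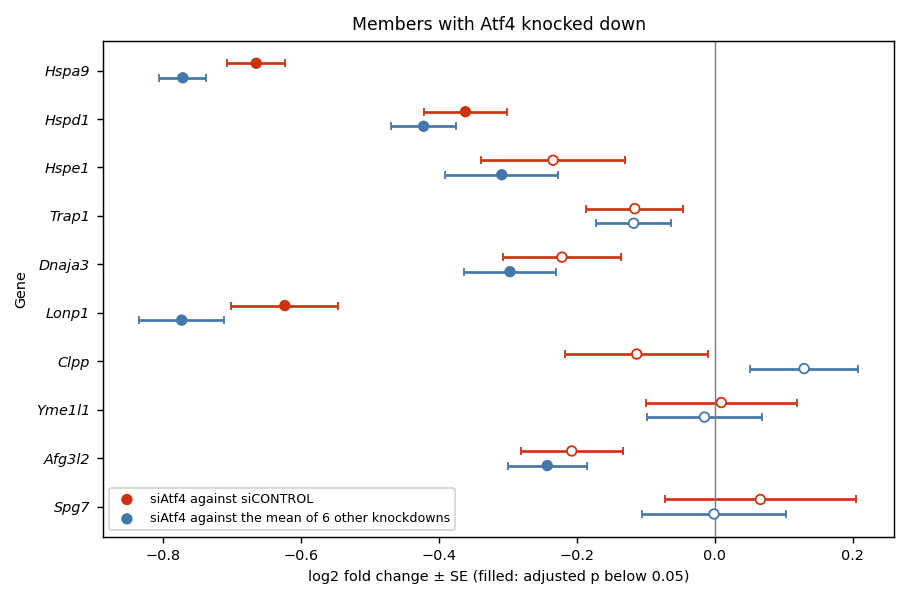
Log2 fold change of each of the 10 genes with its SE (bars) in siAtf4 against siCONTROL libraries and in siAtf4 libraries against the mean of the 6 other knockdowns. Filled points had an adjusted p below 0.05. Hspa9 and Lonp1 lie lowest in both comparisons, and Trap1, Clpp, Yme1l1 and Spg7 have open points in both.

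Genes around the 10 were described by lists chosen by function, with earlier results of these data known. Of 24 other mitochondrial proteostasis genes, 1 was lower in siAtf4 than in siCONTROL libraries and none was higher. It was Grpel1, the nucleotide exchange factor of Hspa9, with 38.7, 33.4, 35.0 and 39.0 CPM in siAtf4 libraries, against 43.7, 48.7, 46.4 and 42.8 CPM in siCONTROL libraries (log2 fold change -0.32 ± 0.07, adjusted p = 0.00465). Of 20 genes of the import machinery, 2 rose (Timm9 by 0.41 and Timm8b by 0.33) and Tomm5 fell by 0.36. Of 13 genes of the mitochondrial genome none was called by edgeR. None of the 13 had an unadjusted p under 0.05 either. Their summed level varied widely, at 26078 to 42410 CPM in siAtf4 and 22708 to 36135 CPM in siCONTROL libraries. Of 18 nuclear genes of mitochondrial content 2 were called and 6 had an unadjusted p under 0.05. These 18 summed to 6416.5 to 6707 CPM in siAtf4 and 6610 to 7016 CPM in siCONTROL libraries. These lists were described by their counts and were not tested as sets.

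Of 19 genes of the mitochondrial and integrated stress response, 17 were lower and none higher in siAtf4 than in siCONTROL libraries, with a median log2 fold change of -1.37. The list holds the siRNA target Atf4, and without it 16 of 18 were lower. The largest log2 fold changes were those of Fgf21 (-3.84), a secreted stress hormone, Chac1 (-2.72), which breaks down glutathione, Atf4 (-2.58) and Mthfd2 (-1.75), a mitochondrial folate enzyme. Of 12 chaperone genes of the endoplasmic reticulum (ER), 6 fell and none rose: Herpud1 had a log2 fold change of -0.95, Hspa5 of -0.60, Dnajb9 of -0.57 and Calr of -0.47. Of 15 cytosolic heat shock genes only Hspa8 fell (-0.24). The summed level of satellite glia markers was 531 to 657 CPM in siAtf4 and 666 to 779 CPM in siCONTROL libraries, with none of the 5 genes called. That of neuron markers was 9678 to 10461 CPM in siAtf4 and 9440 to 10924 CPM in siCONTROL libraries, with Isl1 (1.11), Rbfox3 (0.64) and Syt1 (0.27) higher among 9, and the part of these markers in the result was not tested. The 6 macrophage markers summed to 32.5 to 45.3 CPM in siAtf4 and 27.0 to 46.1 CPM in siCONTROL libraries, with C1qa at 0 in both groups and Ptprc at 0 in siAtf4.

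Among the other knockdowns, siAtf3 and siStat3 raised Lonp1, siJun raised Hspa9, and siAlyref lowered Clpp. Few of the 10 were called: 2 of the 10 were higher and none lower in siAtf3 than in siCONTROL libraries, where 4% of all genes were called higher and 7.49% lower. In siJun libraries 1 was higher and none lower (background 3.19% higher and 4.59% lower), and in siStat3 libraries 1 was higher and none lower (background 1.19% higher and 1.84% lower). In siAlyref libraries 1 was lower and none higher (background 3.37% lower and 0.881% higher). None of the 10 was called in siKlf6, where 1.85% of all genes were, or in siRest, where 0.202% were. At an unadjusted p under 0.05 the counts were 1783 genes for siKlf6 and 908 for siRest, with none of the 10 among them, and DESeq2 also called none of the 10 in either. The median log2 fold change of the 10 lay between -0.01 and 0.07 in these 6 comparisons, all of which use the same siCONTROL libraries.

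Lonp1 had 136, 139, 153 and 134 CPM in siAtf3 libraries, against the siCONTROL values of 104 to 113 CPM. The groups did not overlap, and the log2 fold change was 0.38 ± 0.08 (SE, adjusted p = 0.000800). In siStat3 libraries it had 143, 139.8, 139 and 124 CPM, also all above siCONTROL, with a log2 fold change of 0.33 ± 0.08 (adjusted p = 0.00867). With siStat3 and siCONTROL fitted alone the adjusted p was 0.0506. Hspa9 had 623, 645, 646 and 624 CPM in siJun libraries, above the highest siCONTROL library at 555 CPM, with a log2 fold change of 0.23 ± 0.04 (adjusted p = 0.000409). Its call in siAtf3 libraries, which had 594, 573, 619 and 580.2 CPM, was near the threshold (0.13 ± 0.04, adjusted p = 0.0472) and was kept in 2 of 13 alternatives. The siStat3 libraries at 588 to 621 CPM also lay above all siCONTROL libraries for Hspa9, with an adjusted p of 0.0535.

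Atf4 itself was not called in any of these 6 knockdowns, with means of 511 to 615 CPM, against 569 ± 36.3 CPM in siCONTROL libraries (SD, n = 4). Of the 19 genes of the integrated stress response, 9 were higher and 1 lower in siAtf3, 8 higher and none lower in siJun, and 2 higher and none lower in siStat3 than in siCONTROL libraries. In siAtf3 libraries the genes with the largest differences were Fgf21 (2.06), Nupr1 (1.11), Pycr1 (0.92) and Gdf15 (0.80), and in siStat3 libraries the called genes were Ddit3 (0.54) and Sesn2 (0.41). Of the 24 other mitochondrial proteostasis genes none was called by edgeR in siAtf3, siJun, siStat3 or siAlyref, where 3, 1, 1 and 2 of them had an unadjusted p under 0.05. The summed neuron markers were 7942 to 8768 CPM in siAtf3, 8772 to 10090 CPM in siJun, 8672 to 10352 CPM in siStat3, 8920 to 9683 CPM in siAlyref and 9440 to 10924 CPM in siCONTROL libraries, and of the 9 markers 6 were lower in siAtf3, 2 in siStat3 (Elavl4 at -0.51 and Rbfox3 at -0.45) and 2 in siAlyref libraries, while in siJun 1 was higher and 1 lower. The satellite glia markers summed to 466 to 587.5 CPM in siAtf3, 426 to 637 CPM in siJun and 666 to 779 CPM in siCONTROL libraries, with Glul lower in siAtf3 (-1.12) and siJun (-1.18). The Schwann cell markers summed to 1116 to 1262 CPM in siAtf3, 1182 to 1442 CPM in siJun and 1465 to 1651 CPM in siCONTROL libraries, with Pmp22 lower in siAtf3 (-0.53) and siJun (-0.59). The part of these markers in the results was not tested.

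Clpp, the proteolytic subunit that degrades matrix proteins fed to it by Clpx, had 68.3, 72.8, 59.8 and 53.6 CPM in libraries with knockdown of Alyref, an mRNA export adaptor. The siCONTROL libraries had 99.9, 107, 101 and 94.0 CPM. The groups did not overlap, and the log2 fold change was -0.66 ± 0.11 (SE, adjusted p = 0.000134), 1.58-fold lower in siAlyref. In siJun libraries Clpp had 84.4, 76.5, 89.2 and 71.9 CPM, also below every siCONTROL library, but the difference of -0.32 ± 0.10 did not pass (adjusted p = 0.0600). Dnaja3 went the other way in siAlyref libraries, with 81.1, 85.3, 93.3 and 82.4 CPM, against 74.8, 74.4, 64.8 and 66.4 CPM in siCONTROL libraries. These groups did not overlap, and the difference of 0.29 ± 0.09 missed the threshold (adjusted p = 0.0513). Hspe1 in siAlyref libraries, at 248 to 261 CPM, and Spg7 in siAtf3 libraries, at 61.8 to 71.9 CPM, also lay above all siCONTROL libraries without passing (adjusted p = 0.424 and 0.0749).

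**Figure D3:**
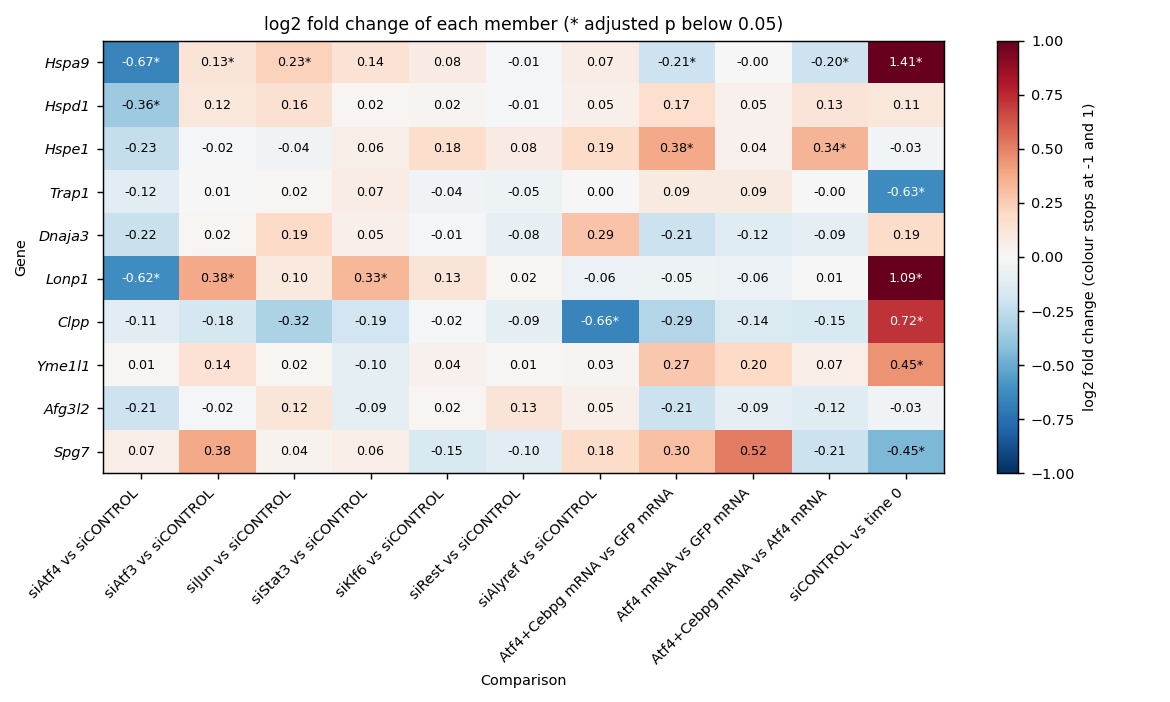
Log2 fold change of the 10 genes (rows) in 11 comparisons (columns), with the colour scale ending at -1 and 1 and an asterisk for an adjusted p below 0.05. Negative values are lower in the group named first. The siAtf4 column has 3 asterisks and the column of siCONTROL against time 0 has 6.

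None of the 10 genes was called after delivery of Atf4 mRNA alone. Atf4 reached 8893 to 18305 CPM with Atf4 mRNA and 10449 to 32427 CPM with Atf4 and Cebpg mRNA, against 574.5 to 705.5 CPM with GFP mRNA, and delivered and endogenous transcripts cannot be told apart in these counts. With Atf4 mRNA alone, 4.84% of all genes were called against GFP mRNA, and none of the 10 was among them by edgeR or DESeq2. At an unadjusted p under 0.05 there were 2690 genes, of which Spg7 was the only 1 of the 10. Hspa9 had 616, 636, 643 and 627 CPM with Atf4 mRNA, against 602, 659.7, 623 and 642 CPM with GFP mRNA, and the log2 fold change was -0.00 ± 0.05 (adjusted p = 0.986). Lonp1 differed by -0.06 ± 0.07 (adjusted p = 0.738) and Hspd1 by 0.05 ± 0.07 (adjusted p = 0.781). The median over the 10 genes was 0.02, against 0.00 over all genes.

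Spg7 had the largest difference with Atf4 mRNA, at 52.2, 64.3, 69.4 and 63.5 CPM, against 49.3, 58.2, 36.2 and 30.0 CPM with GFP mRNA. The groups overlapped, and the log2 fold change of 0.52 ± 0.18 did not pass (adjusted p = 0.124), although it did without GFP replicate 2 (adjusted p = 0.0471). Yme1l1 had 64.2 to 75.4 CPM with Atf4 mRNA, all above the 56.5 to 62.7 CPM with GFP mRNA. Its difference of 0.20 ± 0.10 did not pass (adjusted p = 0.303). Of the 18 genes of the stress response list other than the delivered Atf4, 3 were higher with Atf4 mRNA and none was lower: Sesn2 (1.26), Chac1 (0.55) and Shmt2 (0.30), a mitochondrial serine enzyme. Of the 24 other mitochondrial proteostasis genes 1 was higher, Clpb (0.60), a disaggregase of the space between the membranes.

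With Atf4 and Cebpg mRNA together, Hspe1 rose and Hspa9 fell against GFP mRNA. These were 1 higher and 1 lower of the 10. Among all genes 12.4% were called higher and 12.2% lower, so a call is common in this comparison. Hspe1 had 313, 298, 268 and 344 CPM with both mRNAs, against 219, 237, 237 and 247 CPM with GFP mRNA. The groups did not overlap, and the log2 fold change was 0.38 ± 0.09 (SE, adjusted p = 0.00628), 1.30-fold higher with both mRNAs. Hspa9 had 574, 524, 551 and 541 CPM with both mRNAs, all below the 602 to 659.7 CPM with GFP mRNA. Its log2 fold change was -0.21 ± 0.05 (adjusted p = 0.0128), and it did not pass without GFP replicate 2 or without replicate 2 of the libraries with both mRNAs (highest adjusted p = 0.0538).

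The partner of Hspe1, Hspd1, had 291, 334, 317 and 337 CPM with both mRNAs, against 267, 291, 275 and 305 CPM with GFP mRNA, a difference of 0.17 ± 0.07 that did not pass (adjusted p = 0.0798). The log2 ratio of Hspe1 to Hspd1 was -0.07 ± 0.16 with both mRNAs and -0.28 ± 0.04 with GFP mRNA (SD, n = 4 each). That difference of 0.21 had a two-sided exact permutation p of 0.0571, or 0.367 adjusted over 11 comparisons. Against Atf4 mRNA alone, Hspe1 was higher by 0.34 ± 0.09 (adjusted p = 0.0355) and Hspa9 differed by -0.20 ± 0.05 (adjusted p = 0.0386), 1 higher and 1 lower of the 10 where 4.5% of all genes were higher and 2.1% lower. The call of Hspe1 was kept in 5 and that of Hspa9 in 3 of 13 alternatives, with adjusted p up to 0.120 and 0.118.

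Of the 24 other mitochondrial proteostasis genes, 1 rose with both mRNAs against GFP mRNA, Pitrm1 (0.46), and 4 fell, Pam16 (-1.51), Phb2 (-0.45), Immp1l (-0.40) and Clpx (-0.35), the unfoldase partner of Clpp. Clpp itself differed by -0.29 ± 0.13 (adjusted p = 0.119). Of other lists, 7 of 18 nuclear genes of mitochondrial content and 2 of 13 genes of the mitochondrial genome were called. So were 3 of 20 import genes, 6 of 12 ER chaperone genes and 5 of 15 cytosolic heat shock genes. Of the 19 stress response genes, which include the delivered Atf4 and Cebpg, 5 were called. Among all genes 24.6% were called in this comparison. The delivered Cebpg took 4.53% to 8.66% of the counts of the libraries with both mRNAs. The summed neuron markers were 8041 to 9296 CPM with both mRNAs, 8565 to 9362 CPM with Atf4 mRNA and 9446 to 10637 CPM with GFP mRNA, and the satellite glia markers 365 to 466 CPM with both mRNAs, 400.1 to 466 CPM with Atf4 mRNA and 513.5 to 573 CPM with GFP mRNA. Their part in these results was not tested.

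Between siCONTROL libraries at 42 h and untransfected cells at time 0, Hspa9 and Lonp1 had the largest differences of the 10. Of the 10, 4 were higher and 2 lower in siCONTROL, where 28.7% of all genes were called higher and 29.2% lower, so a call is common in this comparison. Hspa9 had 549.7, 536, 555 and 529 CPM in siCONTROL libraries, against 189, 211, 186 and 230.0 CPM in time 0 libraries. The log2 fold change was 1.41 ± 0.08 (SE, adjusted p = 6.56e-08), 2.65-fold higher in siCONTROL. Lonp1 had 109, 108, 113 and 104 CPM in siCONTROL libraries, against 50.1, 56.0, 44.6 and 52.4 CPM in time 0 libraries, and was 2.13-fold higher in siCONTROL (1.09 ± 0.09, adjusted p = 1.12e-06). Neither gene's groups overlapped.

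Clpp and Yme1l1 were the other genes that rose. Clpp had 99.9, 107, 101 and 94.0 CPM in siCONTROL libraries, against 66.8, 50.3, 63.8 and 62.4 CPM in time 0 libraries (0.72 ± 0.10, adjusted p = 7.08e-05). Yme1l1, which removes unassembled proteins of the inner membrane and processes its fusion protein, had 61.5, 47.7, 53.4 and 54.5 CPM in siCONTROL libraries, against 40.04, 39.2, 36.5 and 42.1 CPM in time 0 libraries (0.45 ± 0.10, adjusted p = 0.00278). The 2 groups stood apart for both genes.

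Trap1 and Spg7 fell. Trap1 had 56.5, 60.9, 56.9 and 57.2 CPM in siCONTROL libraries, against 89.5, 88.1, 86.2 and 93.2 CPM in time 0 libraries, with no overlap. Its log2 fold change was -0.63 ± 0.07 (SE, adjusted p = 2.38e-05), 1.54-fold lower in siCONTROL. Spg7 had 54.6, 60.1, 46.1 and 43.5 CPM in siCONTROL libraries, against 73.4, 88.3, 63.1 and 53.8 CPM in time 0 libraries. These groups overlapped, and the call (-0.45 ± 0.16, adjusted p = 0.0272) was lost without siCONTROL replicate 3 or 4 or without time 0 replicate 1 or 2 (highest adjusted p = 0.0868).

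Hspd1 (0.11 ± 0.07, adjusted p = 0.199), Hspe1 (-0.03 ± 0.09, adjusted p = 0.825), Dnaja3 (0.19 ± 0.11, adjusted p = 0.162) and Afg3l2 (-0.03 ± 0.09, adjusted p = 0.776) did not pass. The order of levels differed: at 42 h in siCONTROL libraries Hspa9 was the most abundant of the 10 and Lonp1 ranked 4, whereas at time 0 Hspd1 came before Hspe1 and Hspa9, and Lonp1 ranked 9. Within the chaperones, Hspa9 rose and Trap1 fell while the chaperonin pair did not pass, and within the proteases Lonp1, Clpp and Yme1l1 rose while Spg7 fell.

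Other lists moved in this comparison as well. Of 18 tested genes of the integrated stress response, 17 were higher and 1, Ddit4 (-0.54), was lower in siCONTROL than in time 0 libraries, with Chac1 (3.42), Sesn2 (3.38), Gdf15 (3.10) and Trib3 (2.57) the largest. Atf4 had 583, 574, 601.5 and 517 CPM in siCONTROL libraries, against 237, 228, 231.5 and 222 CPM in time 0 libraries. Of 12 ER chaperone genes 10 rose and 1 fell, with Sdf2l1 at 2.13 and Hspa5 at 1.16. Of 15 cytosolic heat shock genes 10 fell and 1 rose: Hspa1b (-4.36), Hspa1a (-3.996), Dnajb1 (-1.58) and Fkbp4 (-1.13) had the largest differences.

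Of the 24 other mitochondrial proteostasis genes 6 rose and 3 fell, among them Stoml2 (-1.22), Pitrm1 (1.03), Afg3l1 (0.99) and Bcs1l (-0.96). Grpel1, the exchange factor that was lower in siAtf4, rose by 0.91. Of 20 import genes 7 rose and none fell. Of 18 nuclear genes of mitochondrial content 3 rose and 9 fell, with a summed level of 6610 to 7016 CPM in siCONTROL libraries and 7244 to 7953 CPM in time 0 libraries. Of 13 genes of the mitochondrial genome none rose and 9 fell, with a summed level of 22708 to 36135 CPM in siCONTROL libraries and 51670 to 59540 CPM in time 0 libraries.

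Cell markers differed in this comparison as well. The summed neuron markers were 9440 to 10924 CPM in siCONTROL libraries and 13587 to 14709 CPM in time 0 libraries, with 1 of 9 higher and 6 lower. The satellite glia markers were 666 to 779 CPM in siCONTROL libraries and 4468 to 5539 CPM in time 0 libraries, with 1 of 5 higher and 4 lower. The red cell markers were 4.39 to 11.8 CPM in siCONTROL libraries and 166 to 209 CPM in time 0 libraries. The Schwann cell markers were 1465 to 1651 CPM in siCONTROL libraries and 2057 to 2447 CPM in time 0 libraries, with 2 of 6 higher and 3 lower. The macrophage markers went the other way, with 27.0 to 46.1 CPM in siCONTROL libraries and 9.98 to 16.0 CPM in time 0 libraries (of 4 tested, 2 higher and 2 lower), as did the endothelial and mural cell markers, with 197 to 249.6 CPM in siCONTROL libraries and 142 to 181 CPM in time 0 libraries (3 of 6 higher and 1 lower). The part of these markers in the differences was not tested. In bulk libraries fewer cells of a type and less RNA per cell cannot be told apart.

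The likeness of patterns was described by Pearson's r of log2 CPM over the 32 libraries of the siRNA table taken at 42 h, and again over 28 without siAtf4. These libraries differ in depth, and the labels do not say which share a culture. Both may bear on r, which is given with no test. Hspa9 was most like Tmbim6, an ER membrane gene (r = 0.975, and 0.782 without siAtf4), Asns, the asparagine synthetase (0.969 and 0.666), and Phf10 (0.963 and 0.762). Lonp1 was most like Ndrg1 (0.936 and 0.808), Chac1 (0.930 and 0.834) and Shmt2 (0.923 and 0.746). Hspd1 was most like Hspa9 (0.899 and 0.606), Eif3c (0.890 and 0.600) and Phf10 (0.880 and 0.568). For all neighbours of these 3 genes r was lower without the siAtf4 libraries, as it was for those of Dnaja3, Trap1 and Afg3l2.

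The other genes had other neighbours. Hspe1 was most like Cetn2 (0.804, and 0.811 without siAtf4), Rpl22l1 (0.777 and 0.705) and Tsnax (0.761 and 0.685), and Clpp was most like Kctd10 (0.8289 and 0.834), Eif3b (0.819 and 0.842) and Scaf1 (0.807 and 0.811). Afg3l2 was most like Hspa8 (0.842 and 0.740), Sel1l3 (0.808 and 0.784) and Slc45a1 (0.793 and 0.742), and Yme1l1 was most like Ssr3 (0.799 and 0.802), mt-Atp6 (0.793 and 0.802) and Vps35 (0.781 and 0.779). The best r of Dnaja3, with Rhbdd1, was 0.783, that of Spg7, with Ica1, was 0.704 and that of Trap1, with Svip, was 0.649. Between the 10 genes themselves, Hspa9 and Lonp1 had an r of 0.880 (0.566 without siAtf4) and Hspd1 and Lonp1 one of 0.778 (0.317). The partners Hspd1 and Hspe1, which share a promoter window, had an r of 0.385 (-0.187 without siAtf4), and Dnaja3 and Clpp one of -0.510 (-0.595).

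**Figure D4:**
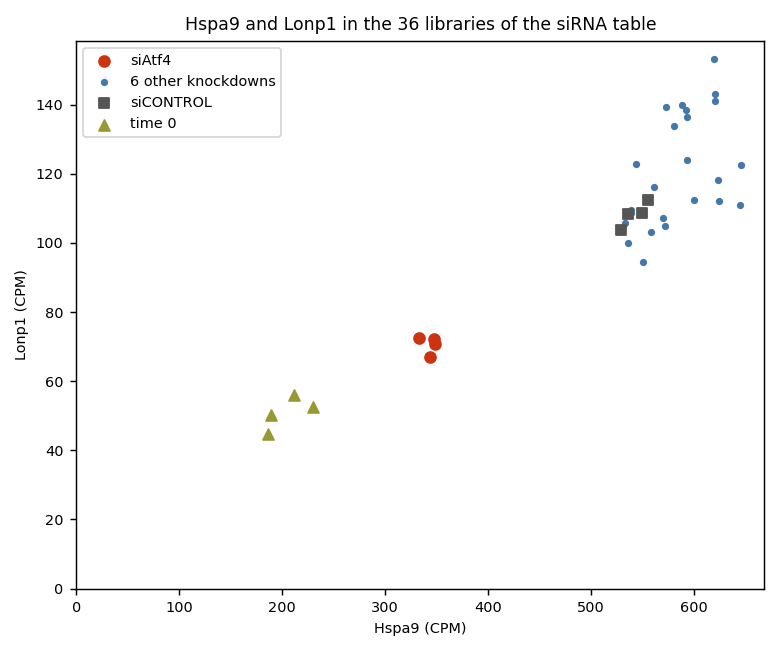
Hspa9 (horizontal axis) and Lonp1 (vertical axis), both in CPM, in the 36 libraries of the siRNA table, with 1 point per library. The 4 siAtf4 libraries, at 333 to 348 CPM of Hspa9, lie between the time 0 libraries and all other libraries taken at 42 h.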

How the data were processed

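The deposited values are kallisto's expected counts per gene, which need not be whole numbers. The submitters' processing notes name kallisto and GRCm39, while version, annotation and scaling were not given in the sources used here. Low values times transcript length clustered near 1 constant in each library (58.3% to 75.1% of low single-transcript genes of at least 2000 bp lay within 4% of it, against 9.94% to 15.9% without length), as in counts derived from TPM. The count model does not know this weight. All 48 columns were matched by name, with 0 identical pairs. GENCODE M21 gave a symbol to 32470 of 34183 gene IDs (95.0%).

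Counts were rounded, kept by filterByExpr by group, scaled by TMM and tested with edgeR 4.0.16 (R 4.3.3; glmQLFit, glmQLFTest, two-sided, Benjamini-Hochberg over all genes, threshold 0.05). SEs were derived from the F statistic. The script was tested on simulated data. Levels are CPM on TMM-scaled library sizes, set once per table and compared only within a table. Correlations used log2 CPM with a prior count of 2. Alternatives were RLE scaling, DESeq2 1.42.0, no filter, a replicate block, 2 groups alone and leaving out each replicate.

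The rule for the 10 genes uses no measured value, but the 10 genes, lists and tests were chosen with earlier results of these data known. All 10 are named, and of each list at most the 4 called genes with the largest absolute log2 fold change, besides targets, partners of a member and the 3 genes most like each; the cell marker genes were named after their values were seen. Files are on GRCm39, and coordinates are printed only for RefSeq promoter windows on GRCm38.p6.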

Additional observations from a re-analysis of the deposited data

Results flagged for a closer look

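In 6 of 120 sets of 4 libraries, 1 per gene and group, the highest or lowest library lay far from the others by Dixon's gap test, and chance flags about 1 in 20 sets. Hspa9 in siStat3 replicate 1 was the highest, at 621 CPM, with the others at 588 to 593 CPM. Hspe1 in siCONTROL replicate 2 was the lowest, at 197.5 CPM, against 230.3 to 236 CPM in the others. Trap1 was flagged in 3 groups: siCONTROL replicate 2 was the highest at 60.9 CPM, with the others at 56.5 to 57.2 CPM, siJun replicate 4 was the lowest at 55.5 CPM, with the others at 59.6 to 60.003 CPM, and siStat3 replicate 3 was the lowest at 51.4 CPM, with the others at 64.0 to 64.3 CPM. Afg3l2 in Atf4 mRNA replicate 1 was the lowest, at 66.4 CPM, with the others at 73.8 to 75.003 CPM.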

How the results depend on the processing

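Of 1750 values of the 10 genes under alternatives, 1694 kept their side of the threshold, 36 lost it, 20 newly passed and 0 called values changed sign. The number of the 10 called was 1 for siAtf3 (main 2) with RLE, no filter or the groups alone. For siJun (main 1) it was 2 with DESeq2, the replicate block or the groups alone. For siStat3 (main 1) it was 2 with RLE, DESeq2 or the replicate block and 0 with the groups alone, and for siAlyref (main 1) 2 with DESeq2 or the replicate block. For both mRNAs against GFP mRNA (main 2) it was 4 with the replicate block and 3 with DESeq2, and against Atf4 mRNA (main 2) 1 with RLE and 0 with no filter or the groups alone. Leaving out 1 library each gave 1 to 2 called for siAtf3 and siJun, 3 to 4 for siAtf4, 5 to 6 for siCONTROL against time 0, 0 to 1 for Atf4 mRNA against GFP mRNA, and for both mRNAs 1 to 3 against GFP mRNA and 0 to 1 against Atf4 mRNA. Newly called genes were Afg3l2 in siAtf4, Spg7 in siAtf3, Clpp in siJun, Hspa9 in siStat3, Dnaja3 in siAlyref, Spg7 with Atf4 mRNA, and Hspd1, Yme1l1 and Dnaja3 with both mRNAs against GFP mRNA. The cause was not tested, beyond fewer libraries.

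The labels do not say whether a replicate number marks a shared culture, and whether the numbers pair the samples is unresolved. Same-number r was positive for every pair (0.031 to 0.178) but not over 0.1 for every pair of any comparison. In each comparison 6 or more of 8 libraries, or 6 of 6 in siKlf6, correlated best with their own number. All 8 of 8 did so in siRest and in the comparisons of the mRNA groups. There the highest r between different numbers (0.008 to 0.033) lay below the lowest same-number r (0.059 to 0.087). This is a hint from the data and not from the design. With the replicate block siAtf4 had 4 called. Over all genes the block called 751 in siStat3 (main 450), 46 in siRest (main 30) and 1028 for Atf4 mRNA against GFP mRNA (main 671). With 2 groups alone the counts were 204 for siStat3, 18 for siKlf6 (main 275), 5 for siRest and 352 for siAlyref (main 633), and in siKlf6 1 of the 18 was higher. With no filter siRest had 18. Without 1 library siRest had as few as 15, siKlf6 160, Atf4 mRNA against GFP mRNA 339, and both mRNAs against Atf4 mRNA 553 (main 915). The median of all genes shifted by over 0.1 in 1 case, by 0.105, with no filter for both mRNAs against GFP mRNA. Spg7, with the lowest counts and widest spread, has the least precision.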
